A study of Hydra vulgaris with 36 samples.

Results

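The genes described here are 71 of the 22608 genes counted in the tentacles of Hydra vulgaris, a freshwater polyp. They were near 0 in tentacles of mock-treated animals, present in ectopic tentacles, and present in original tentacles after RNA interference (RNAi) against Zic4. They were chosen by measured levels in CPM, the counts of a gene scaled to a library total of 1e+06 counts, averaged over the libraries of a group. A gene had a mean under 1 CPM in each of the 3 mock groups, at least 5 CPM in the ectopic tentacles of both Sp5 RNAi and Zic4/Sp5 RNAi animals, and at least 3 CPM in the distal or the proximal part of Zic4 RNAi tentacles. Of 8652 genes under 1 CPM in every mock group, 195 met the limit in both ectopic groups. The Zic4 limit divided these into the 71 genes and 124 genes that stayed under 3 CPM in both parts of Zic4 RNAi tentacles. Levels in mock tentacles, in ectopic tentacles and after Zic4 RNAi therefore describe the selection. The original tentacles left by Sp5 RNAi and by Zic4/Sp5 RNAi had no share in it.

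Hydra carries its tentacles in a ring around the mouth, and an adhesive basal disk closes the opposite end of the body column. The outer layer of a tentacle consists mainly of battery cells, large epithelial cells that hold mounted stinging cells (nematocytes), while the precursors of nematocytes (nematoblasts) and gland cells belong mainly to the body column. Sp5 is a transcription factor that represses Wnt3 and limits head formation, and Zic4 is a zinc finger transcription factor tied by the title of the series to tentacle formation and to the identity of its epithelial cells. Tentacles that arise outside the normal ring are called ectopic.

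All animals were of strain Hm_105 and were labelled wild type. They were electroporated 3 times, with each siRNA at 1.35 µM and 20 to 30 animals per treatment, and tentacles were collected 7 days after the last round. A distal and a proximal part of original tentacles were taken apart after Zic4 RNAi (4 libraries of each part), Sp5 RNAi (3 of each) and mock RNAi (4 of each). Whole tentacles were taken in 4 groups, namely ectopic ones after Sp5 RNAi (3 libraries), ectopic and original ones after Zic4/Sp5 RNAi (4 of each) and original ones of a further mock group (3). Material was pooled in the lysis buffer, and the labels do not say whether the libraries of a group came from separate treatments. The p-values below therefore measure only the spread between these libraries, which may be technical.

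Library totals were 2.04 to 13.28 M (mega) counts. The 3 libraries of proximal Sp5 RNAi tentacles were among the shallow ones, with 2.57 to 3.22 M counts and 10326 to 11287 genes at 10 counts or more. Mock distal replicate 4 had 2.04 M counts and 9240 such genes, and mock proximal replicate 3 had 2.39 M counts and 8243. In mock proximal replicate 3 a single count was 0.418 CPM. The tentacle markers hywnt5a, hywnt8 and Alx were detected in every library, with a summed level of 102 to 528 CPM. In bulk tissue, fewer cells of a type and less RNA per cell cannot be told apart.

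The genes have no descriptive names in the sources used here. Of the 71, 49 (69.0%) had an entry in the RefSeq gene table of assembly HydraT2T_AEP, each under a symbol of LOC and a number, and 48 of the 49 were protein-coding. The other 22 are given by the number they carry in the count table. No role is stated for any of them. They did not form 1 cluster in the genome, but 4 pairs lay within 10 genes of each other in the table's order. The closest pair was LOC105845224 and LOC101235340, with 1 gene between them, followed by LOC100198016 and LOC105844769, with 2.

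In mock tentacles the 71 genes were at or close to the detection limit. Of the 781 values they had in the 11 mock libraries, 406 (52.0%) were 0 counts, and 7 genes had 0 counts in all 11. The highest value was 3.35 CPM, or 8 counts, reached by gene 101239929 and by LOC100212027 in the same library, mock proximal replicate 3. Summed over the 71 genes, mock libraries held 12.1 to 38.9 CPM, and mock proximal replicate 3 was the highest.

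The summed level was larger in every RNAi library than in any mock library. It was 1769, 1387, 1617 and 2689 CPM in distal Zic4 RNAi tentacles, and 180, 724, 1295 and 160 CPM in proximal ones. In Sp5 RNAi tentacles it was 902, 657 and 4047 CPM distally, 2526, 1432 and 1544 CPM proximally, and 9281, 6689 and 5449 CPM in ectopic tentacles. The ectopic tentacles of Sp5 RNAi animals were thus the richest source, and proximal Zic4 RNAi tentacles the poorest among the RNAi groups. The double treatment Zic4/Sp5 RNAi gave 652, 4158, 2158 and 3113 CPM in original tentacles and 5385, 5026, 2758 and 2407 CPM in ectopic tentacles. Original tentacles of that treatment covered a wider range than ectopic ones, and the ranges overlapped.

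**Figure D1:**
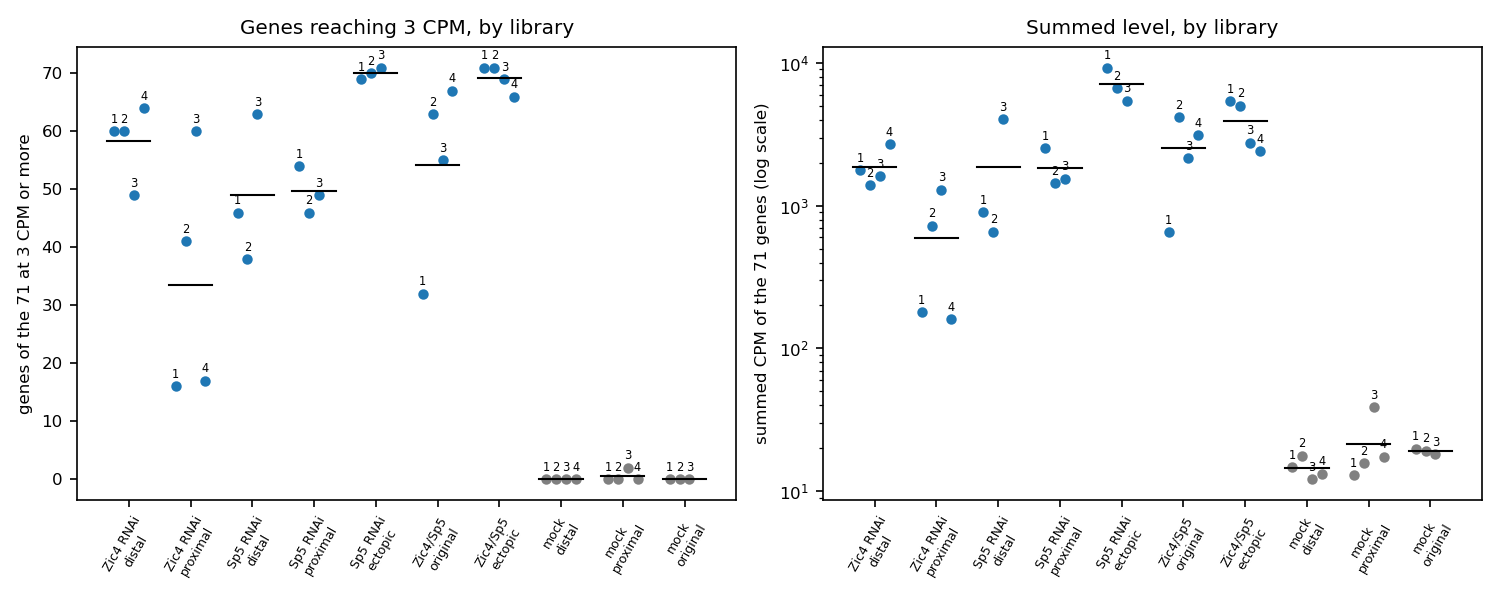
Left, number of the 71 genes at 3 CPM or more in each library. Right, their summed CPM on a log axis. Points are libraries with their replicate numbers, and horizontal lines are group means. Mock libraries hold 0 genes at 3 CPM apart from proximal replicate 3 with 2, and proximal Zic4 RNAi replicates 1 and 4 stand below replicates 2 and 3.

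Among the genes as chosen, levels after Zic4 RNAi were mainly distal. A mean of 3 CPM was reached by 41 genes in both parts of Zic4 RNAi tentacles, 23 in the distal part alone and 7 in the proximal part alone. The mean was higher distally for 60 genes and higher proximally for 11, with a median distal to proximal ratio of 3.75. Measured against Sp5 ectopic tentacles, the median gene stood at 26.8% of the ectopic mean in distal and at 9.92% in proximal Zic4 RNAi tentacles.

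LOC100202039 had the highest mean of the 71 genes in distal Zic4 RNAi tentacles. It was at 188, 157, 108 and 277 CPM there and at 6.23, 68.3, 115 and 2.17 CPM in the proximal part, against 0.146, 0, 0 and 0 CPM in mock distal and 0, 0, 0 and 0.341 CPM in mock proximal tentacles. All 4 distal Zic4 RNAi libraries were high, whereas the proximal ones divided into a pair above 60 CPM and a pair below 7 CPM. LOC105848775 was at 104, 63.1, 67.7 and 150 CPM in distal and at 0.944, 14.4, 53.0 and 0.289 CPM in proximal Zic4 RNAi tentacles, against at most 0.196 CPM in mock distal and at most 1.25 CPM in mock proximal tentacles. LOC100212386 was at 114, 50.6, 50.3 and 147 CPM distally and at 0.944, 19.2, 33.2 and 0.724 CPM proximally after Zic4 RNAi, against at most 0.146 and at most 0.317 CPM in the same parts of mock tentacles. Both repeated the division of the proximal libraries.

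The same division was seen in most of the 71 genes. In 55 of the 71, proximal Zic4 RNAi replicates 1 and 4 were both below replicates 2 and 3, and 40 genes were under 1 CPM in replicates 1 and 4 alike. The division was drawn from these same libraries, which the selection used, and its share over all genes was not counted. The 55 genes are therefore a description only. Replicates 1 and 4 were the lowest of the 4 for 26 and 39 of the 71, beside 20.3% and 29.1% of 10519 genes ranked. Replicate 3 held 60 of the 71 genes at 3 CPM or more and replicate 2 held 41, while replicates 1 and 4 held 16 and 17. Over the group mean 48 genes reached 3 CPM proximally, and 34 did so without replicate 3. Nematocyte-lineage markers (nb001, nb012, nb035, nb039b and nowa) did not follow this division, since their summed level was 20.9, 345, 20.3 and 336 CPM in proximal replicates 1 to 4. The gland markers kazal1 and kazal4, which encode Kazal-type protease inhibitors, summed to 14.6, 43.8, 66.5 and 65.4 CPM in the same libraries. In mock proximal tentacles the gland markers were at 9.56 to 170 CPM and the nematocyte-lineage markers at 38.3 to 154 CPM.

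Every library of distal Zic4 RNAi tentacles was above every mock distal library for 61 of the 71 genes, where 2.99% of all genes showed this. Every proximal Zic4 RNAi library was above every mock proximal library for 26 of the 71, where 30.3% of all genes did. Since the selection used both groups, nothing is read from these counts.

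At the edge of the selection the levels were small. LOC105850864 had a distal Zic4 RNAi mean of 3.01 CPM and gene 105846947 one of 3.10 CPM, and both were kept. LOC100202451 and LOC101238148 had 2.95 CPM each and were not. At the mock limit gene 101239929 was kept with 0.992 CPM, and LOC100202503 was not with 1.03 CPM, so the number of genes depends on small differences at each limit. LOC100203541 met the Sp5 ectopic limit through a single library, with 4, 3 and 115 counts in that group.

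**Figure D2:**
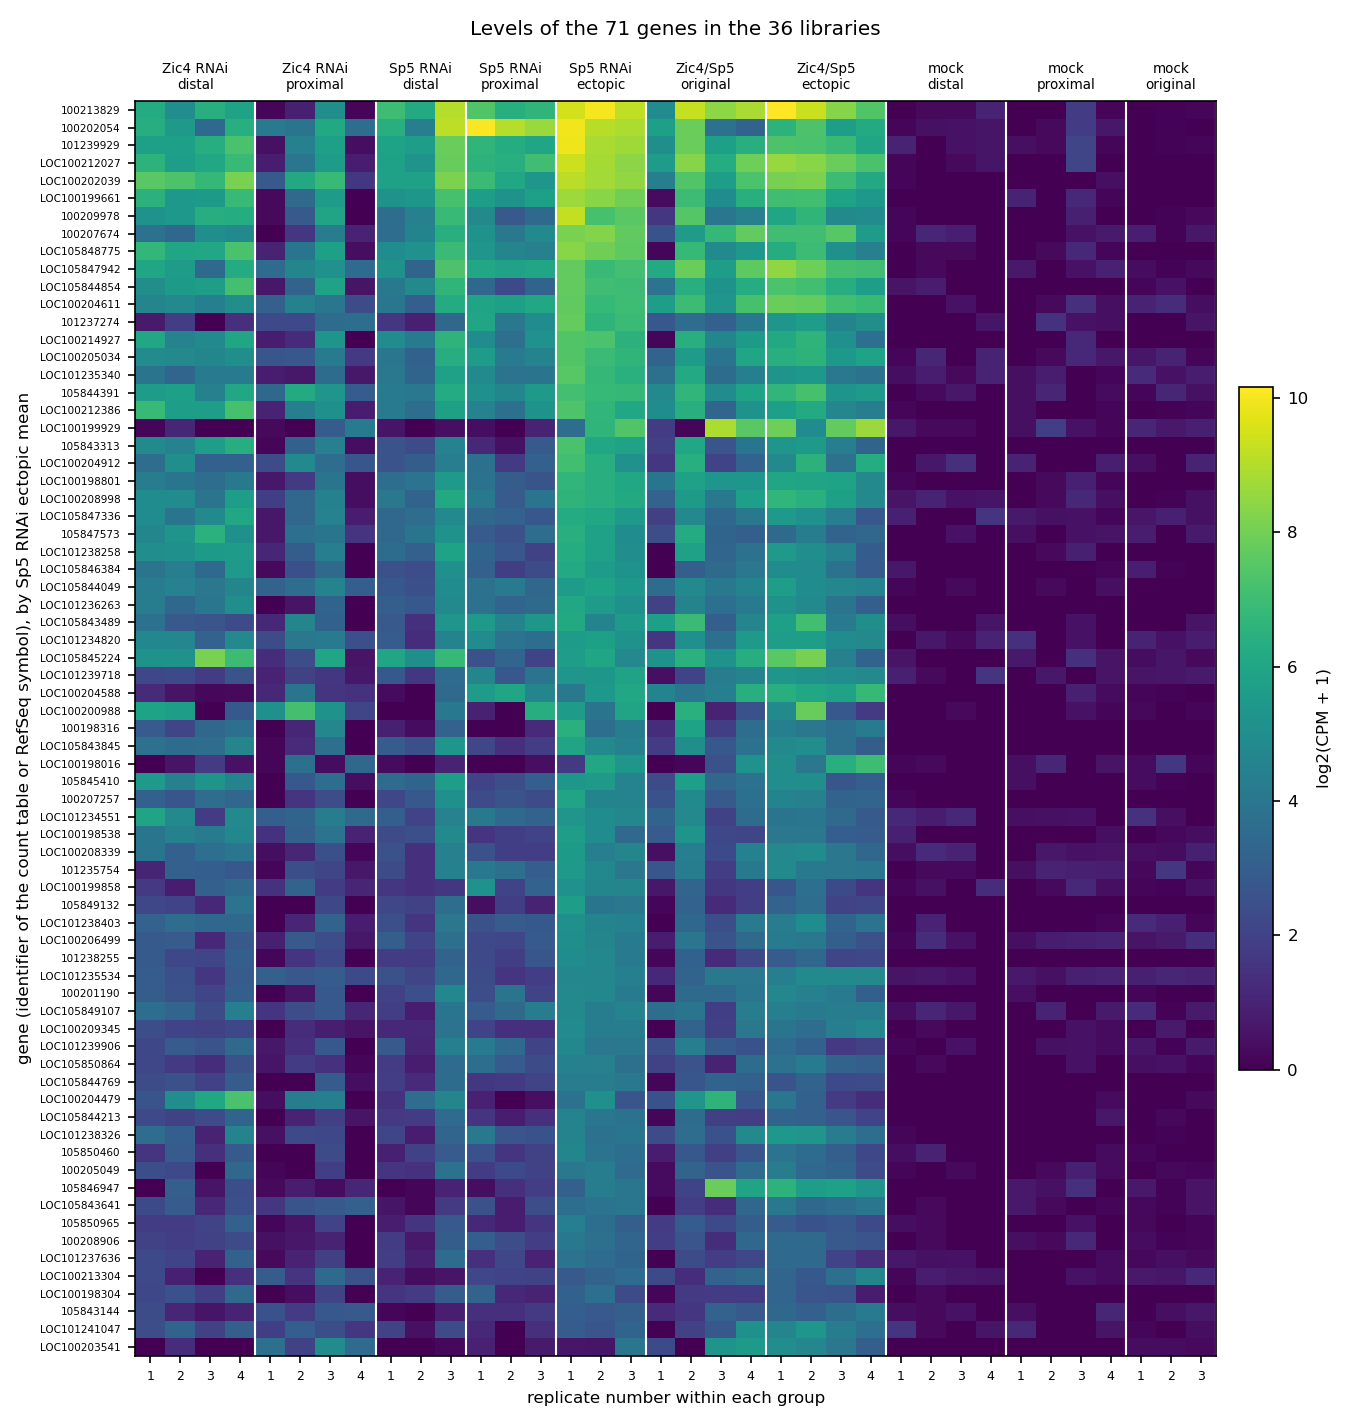
Level of each of the 71 genes (rows, ordered by the mean in Sp5 RNAi ectopic tentacles) in each of the 36 libraries (columns, by group and replicate number). Colour gives log2(CPM + 1). The mock columns at the right are near 0 throughout, and proximal Zic4 RNAi replicates 1 and 4 are dark for most genes. LOC100199929, gene 105846947 and LOC100203541 are bright in most Zic4/Sp5 RNAi libraries and dark in many others. LOC100199929 is also bright in Sp5 RNAi ectopic tentacles, and LOC100203541 in proximal Zic4 RNAi tentacles.

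The groups that the selection did not use showed the 71 genes as well. In original tentacles of Sp5 RNAi animals, 61 genes (85.9%) had a mean of at least 3 CPM in the distal part, where 0.948% of the genes low in mock reached it. In the proximal part 53 genes (74.6%) reached it, beside 0.959% of the genes low in mock. After Zic4/Sp5 RNAi 69 genes (97.2%) reached it in original tentacles, beside 3.57%. The genes low in mock include the 71 genes, and their median was 0, 0 and 0.0188 CPM in these groups. The 71 genes were selected to be present in other RNAi groups, so the shares are not a like comparison. In all, 32 of the 71 genes reached 3 CPM in every one of the 7 RNAi groups.

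The 124 genes that met every criterion except the Zic4 one behaved otherwise in the Sp5 RNAi original tentacles. Of them, 5 (4.03%) reached 3 CPM distally and 9 (7.26%) proximally, while 89 (71.8%) did so in the original tentacles left by Zic4/Sp5 RNAi. The ectopic levels of the 124 genes differed from those of the 71. In Sp5 RNAi ectopic tentacles the median of the 71 genes was 48.1, 33.0 and 26.4 CPM in the 3 libraries, and that of the 124 genes was 2.34, 11.9 and 11.7 CPM. In Zic4/Sp5 RNAi ectopic tentacles the medians were 30.9, 30.0, 16.8 and 13.6 CPM for the 71 genes and 12.1, 4.76, 24 and 36.6 CPM for the 124 genes. The 71 genes were therefore the more abundant set in Sp5 ectopic tentacles, and the part of abundance in the difference was not tested.

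The sets also parted between single libraries of Zic4/Sp5 RNAi original tentacles. In replicates 1 to 4, the 71 genes had 32, 63, 55 and 67 members at 3 CPM or more, and the 124 genes had 8, 5, 54 and 118. Replicate 2 thus showed most of the 71 genes and few of the 124. The nematocyte-lineage markers summed to 38.5, 31.7, 262 and 2500 CPM and the gland markers to 45.9, 1.91, 813 and 280 CPM in the same 4 libraries, against 25.4 to 85.5 CPM and 1.84 to 5.80 CPM in the mock libraries of whole tentacles. In replicate 2 both of these marker sums lay within the mock range while the 71 genes summed to 4158 CPM. Among the other cell type lists, those of stem and germ cells and of the head organizer were above mock in all 4 of these libraries, replicate 2 included. The tentacle markers were not, at 172 to 309 CPM against 260 to 308 CPM in mock whole tentacles. The stem and germ cell markers piwil1 and Hyli summed to 279 to 350 CPM, against 180 to 212 CPM in mock whole tentacles. The head organizer list holds 14 genes, mostly Wnt genes and including ctnnb1, hywnt5a and hywnt8. They summed to 628 to 1061 CPM, against 444 to 549 CPM in mock whole tentacles. Most of this sum came from ctnnb1 and hywnt5a. The mean of ctnnb1 was 410 CPM against 273 CPM in mock, and that of hywnt5a 134 against 146 CPM. All other members of the list also had a higher mean than in mock. Among them were the brachyury genes Bra1 (70.6 against 0.091 CPM) and Bra2 (44.3 against 3.31 CPM). Means of hywnt7 and Wnt3a were 61.3 and 32.5 CPM against 15.0 and 7.54 CPM. Single libraries varied widely, from 0 to 192 CPM for Bra1. The part of cells with any of these markers in the levels of the 71 genes was not tested.

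Distal Sp5 RNAi tentacles gave the same measurement in a second group. There the nematocyte-lineage markers summed to 36.7 to 37.7 CPM, within the 22.9 to 48.5 CPM of mock distal tentacles, and the gland markers to 0.122 to 1.31 CPM, against 1.31 to 3.92 CPM in mock distal tentacles. The stem and germ cell markers were at 269 to 307 CPM, within the 167 to 426 CPM of mock distal tentacles. The head organizer list was at 942 to 1181 CPM, within 537 to 1239.8 CPM. Here too ctnnb1 and hywnt5a made up most of that sum, at means of 634 and 363 CPM. Single low members went both ways. Means of hywnt11 and hywnt7 were 2.20 and 5.06 CPM against 0.182 and 0.677 CPM in mock distal tentacles. Those of hywnt16 and Wnt3a were 7.15 and 2.59 CPM against 11.1 and 4.71 CPM. The 71 genes had 46, 38 and 63 members at 3 CPM or more in these libraries. In the ectopic tentacles of both treatments the nematocyte-lineage markers were at 450 to 6140 CPM and the gland markers at 171 to 809 CPM, and their part in the levels of the 71 genes there was not tested.

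**Figure D3:**
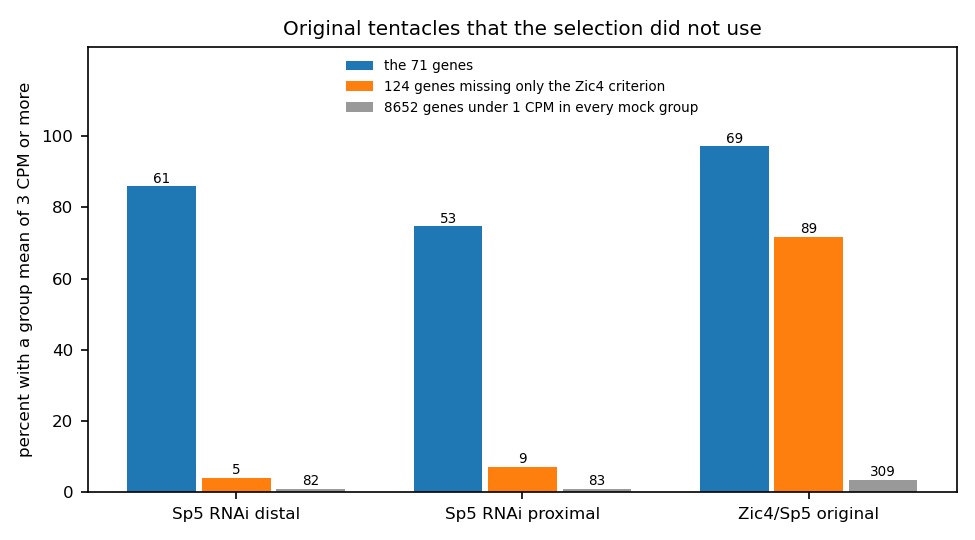
Percent of genes with a group mean of at least 3 CPM in the 3 groups of original tentacles that the selection did not use, with the number of genes above each bar. Bars give the 71 genes, the 124 genes that miss only the Zic4 criterion, and all 8652 genes under 1 CPM in every mock group, which include both sets. The 71 genes reach 85.9, 74.6 and 97.2%, and the 124 genes 4.03, 7.26 and 71.8%.

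**Figure D4:**
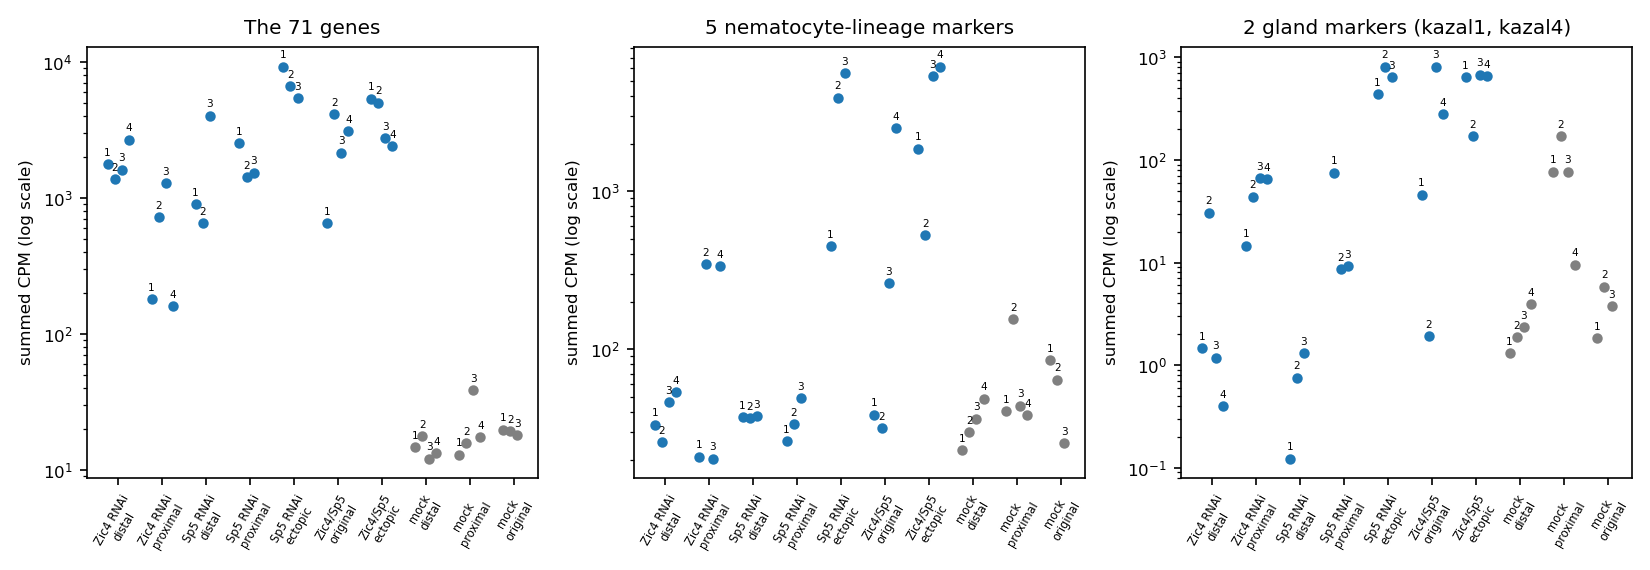
Summed CPM per library (log axes) of the 71 genes, of 5 nematocyte-lineage markers and of 2 gland markers, by group. Points are libraries with their replicate numbers. Distal Sp5 RNAi libraries and Zic4/Sp5 RNAi original replicate 2 have marker sums within or below the range of their mock groups while the 71 genes sum to 657 to 4158 CPM.

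Against mock tentacles, edgeR's quasi-likelihood test with Benjamini-Hochberg adjustment over all genes called 49 of the 71 genes higher and 0 lower in distal Sp5 RNAi tentacles, where 1.69% of all genes tested were called higher and 0.6% lower. It called 42 higher and 0 lower in proximal Sp5 RNAi tentacles, where 4.32% and 2.37% of all genes were called. For Zic4/Sp5 RNAi original tentacles it called 49 higher and 0 lower, beside 2.36% and 2.03%. Since the selection kept only genes with low mock levels, it fixed the absence of lower calls and favoured higher ones. The shares of all genes include genes not low in mock, so they are not a like comparison. No fold is given, because 50, 44 and 37 of the 71 genes had at most 3 counts in every library of mock distal, mock proximal and mock whole tentacles.

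The number of calls rested in part on single libraries. Without Sp5 distal replicate 3 it was 23 of 71 in the distal comparison. Without Sp5 proximal replicate 3, or without mock proximal replicate 2, it was 27 in the proximal one. The comparison of Zic4/Sp5 RNAi original tentacles gave 15, 20 and 18 without mock replicates 1, 2 and 3, and 16 with the compared groups fitted alone. Every Sp5 RNAi library was above every mock library of the same part for 59 of the 71 genes distally and 63 proximally, where 9.19% and 13.1% of all genes showed this. For Zic4/Sp5 RNAi original tentacles it was 55 of the 71, beside 9.22%. The low mock levels set by the selection favoured these counts too.

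Gene 100213829 was the most abundant of the 71 in Sp5 RNAi ectopic tentacles and can stand for the range between groups. It was at 129, 73.0 and 524 CPM in distal Sp5 RNAi tentacles and at 166, 84.7 and 98.2 CPM in proximal ones, against at most 0.981 CPM in mock distal and at most 2.51 CPM in mock proximal tentacles. In Sp5 RNAi ectopic tentacles it was at 714, 1033 and 579 CPM. Every library of these 3 groups was above every mock library. After Zic4/Sp5 RNAi it was at 29.8, 607, 347 and 466 CPM in original and 1142, 648, 313 and 168 CPM in ectopic tentacles, against at most 0.0939 CPM in original mock tentacles. In Zic4 RNAi tentacles it was at 75.9, 31.0, 83.3 and 57.6 CPM distally, and at 0.0944, 0.867, 32.5 and 0.145 CPM proximally, where replicate 3 alone was above every mock library of that part.

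Sp5 distal replicate 3 was the highest of its 3 libraries for 69 of the 71 genes, while it was the highest for 30.3% of all genes. Measured against the Sp5 ectopic means, the median of the 71 genes was 12.7, 8.07 and 56.6% in distal replicates 1 to 3 and 17.5, 11.4 and 17.3% in proximal replicates 1 to 3. Without distal replicate 3, 44 genes had a distal mean of at least 3 CPM. The same median in Zic4/Sp5 RNAi original tentacles, against the ectopic tentacles of that treatment, was 10.7, 103, 33.1 and 79.2% in replicates 1 to 4, so replicate 2 had reached the ectopic level.

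Within Sp5 RNAi tentacles, neither side of the comparison of distal with proximal parts was used in the selection. Its fit did share the filter, scaling and estimate of spread with groups that the selection used. Over the 71 genes the median log2 fold change of distal over proximal was 0.03, beside -0.03 over all 14332 genes tested, and 37 of the 71 were positive. The test called 0 of them higher and 7 lower distally, where 10.6% of all genes were called higher and 12.1% lower. At an unadjusted p under 0.05 the fit held 11 of the 71, while DESeq2 called 1 higher and 7 lower, and edgeR on these libraries alone called 2 higher and 4 lower. The share called lower, 9.86%, was thus near that of all genes.

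The 7 genes called lower in distal than in proximal Sp5 RNAi tentacles were 101237274, LOC100199858, LOC100213304, LOC100204588, 105843144, LOC105843641 and LOC101239718. Of the 7 genes that reached 3 CPM after Zic4 RNAi in the proximal part alone, 4 were among them (101237274, LOC100204588, LOC100213304 and 105843144). That group is defined by Zic4 RNAi levels that the selection used, so the overlap is given as a description only. The remaining 3 of the proximal group, LOC100199929, LOC100198016 and LOC100203541, were at 0 to 0.989 CPM in the 6 Sp5 RNAi original libraries and were not called.

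Gene 101237274 was at 2.08, 0.879 and 9.5 CPM in distal and at 62.7, 15.9 and 29.7 CPM in proximal Sp5 RNAi tentacles, without overlap. Its log2 fold change was -3.68 ± 0.84 (SE, n = 3 each), with an edgeR adjusted p of 0.00418. After Zic4 RNAi it was at 0.661, 2.59, 0 and 1.59 CPM distally and at 3.68, 3.76, 11 and 11.9 CPM proximally, where all 4 libraries were above the distal ones. It was at 215, 97.3 and 122 CPM in Sp5 ectopic tentacles and was called in every fit that left out 1 library.

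LOC100204588 was at 0.245, 0 and 10.3 CPM in distal and at 47.5, 63.0 and 23.7 CPM in proximal Sp5 RNAi tentacles, a log2 fold change of -4.17 ± 1.19 (edgeR adjusted p = 0.0183). Distal replicate 3 was the highest of its part and still below each proximal library. LOC100213304 was at 0.979, 0.251 and 0.491 CPM distally and at 3.42, 3.11 and 2.97 CPM proximally, with -2.82 ± 0.83 (edgeR adjusted p = 0.0175). Gene 105843144 was at 0.122, 0 and 0.819 CPM distally and at 1.55, 1.55 and 2.31 CPM proximally, with -2.97 ± 0.92 (edgeR adjusted p = 0.0227). The levels of gene 105843144 were 1, 0 and 5 counts against 5, 4 and 7 counts. Those of LOC100213304 were 8, 2 and 3 counts against 11, 8 and 9 counts, so both calls rest on few reads.

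The other called genes were not of the proximal group. LOC100199858 was at 2.08, 1.63 and 2.13 CPM distally and at 34.8, 3.11 and 8.24 CPM proximally, with -3.55 ± 0.94 (edgeR adjusted p = 0.0102), and proximal replicate 1 was well above the others. LOC105843641 had -2.27 ± 0.77 (edgeR adjusted p = 0.0359) and its parts overlapped. It was at 0.490, 0.126 and 2.29 CPM distally and 4.66, 0.777 and 4.28 CPM proximally. These levels were low too, at 4, 1 and 14 counts against 15, 2 and 13 counts. LOC101239718 had -1.76 ± 0.64 (edgeR adjusted p = 0.0478) and overlapped too, at 5.88, 2.13 and 10.8 CPM distally and 24.5, 5.83 and 14.2 CPM proximally. Only 1 of the 71 genes was called without Sp5 proximal replicate 1, 2 without distal replicate 2, 3 without distal replicate 1, 4 without proximal replicate 3 and 14, again all lower, without distal replicate 3. The gland markers summed to 75.2, 8.55 and 9.23 CPM in the proximal replicates, against 9.56 to 170 CPM in mock proximal tentacles. Their part in these differences was not tested.

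**Figure D5:**
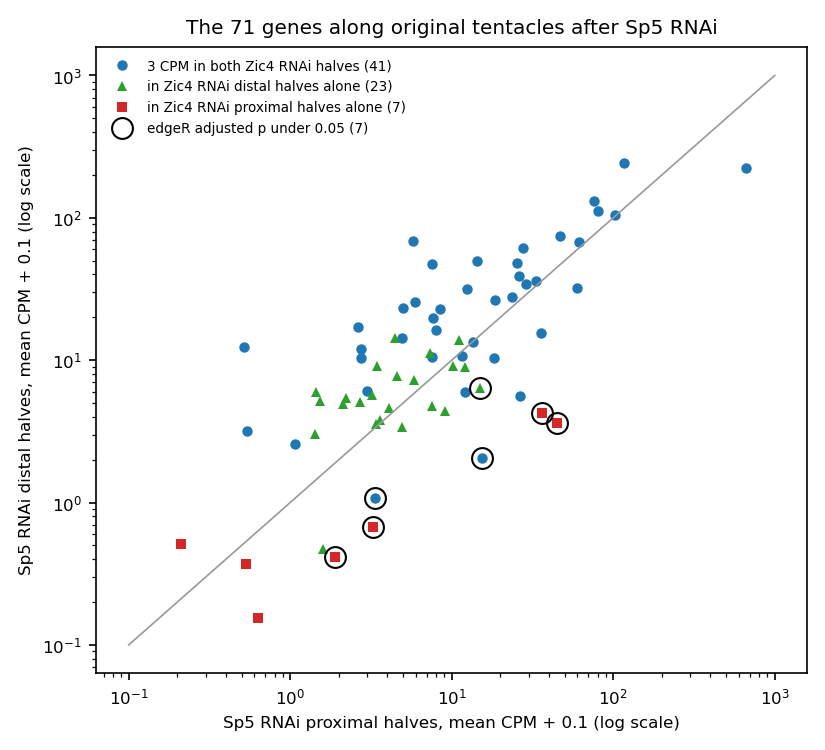
Mean level of each of the 71 genes in distal (vertical) against proximal (horizontal) parts of Sp5 RNAi original tentacles, as CPM + 0.1 on log axes, with the line of equal levels. Symbols give the part of Zic4 RNAi tentacles in which the gene reached 3 CPM (41 genes in both, 23 distally alone, 7 proximally alone), and rings mark the 7 genes with an edgeR adjusted p under 0.05, all below the line.

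LOC105845224 went the other way in level without being called. It was at 61.3, 32.4 and 111 CPM in distal and at 4.66, 8.94 and 3.30 CPM in proximal Sp5 RNAi tentacles, with no overlap and a log2 fold change of 3.20 ± 1.22 (edgeR adjusted p = 0.0638). After Zic4 RNAi it was at 36.4, 36.6, 277 and 123 CPM distally and at 1.42, 4.33, 61.8 and 0.434 CPM proximally. Its levels in Sp5 ectopic tentacles, 48.8, 62.4 and 26.4 CPM, overlapped those of the distal parts after either treatment. Its neighbour LOC101235340 was at 15.5, 8.79 and 55.0 CPM distally and 27.3, 13.6 and 14.2 CPM proximally after Sp5 RNAi, so the closest pair in gene order did not share this difference in level.

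The effect of Sp5 RNAi relative to mock was also compared between the parts, as an interaction term in edgeR. None of the 71 genes passed (0 called, 4 at an unadjusted p under 0.05, smallest adjusted p = 0.443). The low mock counts given above limit the precision of this term.

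Some genes reached the ectopic level in original tentacles. Gene 100202054 was at 1081, 518 and 399 CPM in proximal Sp5 RNAi original tentacles, overlapping the 989, 538 and 481 CPM of Sp5 ectopic tentacles, and at 81.6, 19.6 and 567 CPM distally. Its distal to proximal log2 fold change was -2.11 ± 0.95 (edgeR adjusted p = 0.110) and missed the threshold. LOC100200988 varied more between libraries than between groups, at 59.0, 50.0, 0 and 5.97 CPM in distal and 33.5, 141, 36 and 3.33 CPM in proximal Zic4 RNAi tentacles. After Zic4/Sp5 RNAi the same gene was at 0, 85.8, 0.947 and 4.97 CPM in original and 27.3, 222, 5.95 and 2.27 CPM in ectopic tentacles. In both groups of Zic4/Sp5 RNAi animals replicate 2 alone set most of the mean.

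Between the ectopic groups, which come from separate sets of libraries and both served the selection, the mean was higher in Sp5 RNAi than in Zic4/Sp5 RNAi for 56 genes and lower for 15. The median ratio was 1.74. LOC100199929 was among the genes lower in Sp5 RNAi, at 11.3, 99.3 and 167 CPM there and at 242, 30.0, 212 and 393 CPM in Zic4/Sp5 RNAi ectopic tentacles. In Zic4/Sp5 RNAi original tentacles it was at 2.42, 0.137, 474 and 187 CPM, against 1.14, 0.597 and 0.845 CPM in mock, so replicates 3 and 4 were high and replicate 2 was below mock. In replicates 3 and 4 the gland markers were at 813 and 280 CPM and the nematocyte-lineage markers at 262 and 2500 CPM. The part of cells with either set of markers was not tested. Gene 105846947 was likewise highest in replicates 3 and 4, at 0.230, 3.28, 236 and 60.6 CPM in Zic4/Sp5 RNAi original tentacles, against at most 0.612 CPM in mock, and at 0 to 2.64 CPM in the 6 Sp5 RNAi original libraries. Both genes were thus high in the libraries in which the 124 genes were also present.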

How the data were processed

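Tissue was pooled and its cDNA amplified by SmartSeq2 and tagmented with Tn5, per the labels' protocols, which mention no molecular identifiers. The authors deposited raw read counts per gene and library. The submitters' processing notes name bcl2fastq and STAR 2.5.0. The counting program, its use of strand and shared reads, and the genome build are not given in the sources used here. Zic4 and Sp5 were not matched by name, so their knockdown was not measured. The basal disk list matched 1 gene, which the selection leaves out.

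CPM uses library totals. Tests used edgeR 4.0.16 (R 4.3.3) with filterByExpr, TMM and the robust quasi-likelihood fit. Divided tentacles were fitted together with the whole Sp5 ectopic tentacles (25 libraries, 14332 genes). The whole tentacles of Zic4/Sp5 RNAi and mock animals were fitted apart (11 libraries, 14826 genes). Benjamini-Hochberg adjustment ran over all genes tested, with a threshold of 0.05 and standard errors derived from the F statistic. The fit was tested on simulated data. Alternatives were DESeq2 1.42.0, no filter, the compared groups alone, a replicate block, each library left out, TMM-scaled CPM and group medians.

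The named genes are the 5 highest in each of distal Zic4, proximal Zic4 and Sp5 ectopic tentacles, the 3 highest in each unused group, the first 5 called distally against proximally after Sp5 RNAi, and those next to the Zic4 limit. LOC105843641, LOC101239718, LOC100198016, LOC100203541 and the neighbouring pairs were added after their values were seen. The genes and marker lists were chosen with earlier results of these data known.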

Additional observations from a re-analysis of the deposited data

Results flagged for a closer look

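In 13 of 104 groups of 4 libraries tested, 1 library stood far above the other 3 by Dixon's test on CPM. The test assumes a normal spread, which skewed CPM and values of a few counts may not have. No chance rate is therefore set beside this number. Mock proximal replicate 3 was flagged for 2 of the 71 genes at 3 CPM or more, where the other mock proximal libraries had 0, and for their summed level of 38.9 CPM, where the others had 13.0 to 17.4 CPM. Proximal Zic4 RNAi replicate 3 stood high for LOC105845224 (61.8 CPM), gene 100202054 (71.6 CPM) and gene 100213829 (32.5 CPM), and proximal Zic4 RNAi replicate 2 for LOC100204588 (14.4 CPM).

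In Zic4/Sp5 RNAi animals LOC100200988 stood high in replicate 2 of both original (85.8 CPM) and ectopic tentacles (222 CPM). Zic4/Sp5 RNAi original replicate 4 stood high for LOC100204588 (80.6 CPM) and LOC100198016 (35.5 CPM). In distal Zic4 RNAi tentacles the flagged values were small, at 1.15 CPM for LOC100199929 and 1.44 CPM for LOC100203541 in replicate 2 and 2.53 CPM for LOC100198016 in replicate 3.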

How the results depend on the processing

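The selection gave 58 genes on TMM-scaled CPM, all among the 71, and 71 with group medians, of which 63 were among the 71. Leaving out each library in turn gave 65 to 75 genes, of which 64 to 71 were among the 71. In the groups the selection did not use, the genes at 3 CPM or more numbered 57, 54 and 68 (distal Sp5 RNAi, proximal Sp5 RNAi, Zic4/Sp5 RNAi original) on TMM-scaled CPM and 48, 48 and 63 with medians. With 1 library left out in turn they numbered 44 to 63, 51 to 55 and 63 to 70. Leaving out libraries in these groups, and the comparison with the 124 genes, were chosen after seeing the data.

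Genes called in distal against proximal Sp5 RNAi tentacles numbered 1 to 14 with 1 library left out. Against mock they numbered 23 to 53 distally, 27 to 37 proximally and 15 to 69 in Zic4/Sp5 RNAi original tentacles. In the last comparison the compared groups alone gave 16 and the replicate block gave 29. No other alternative moved a count of calls by over 1.5 times. None of the genes called in distal against proximal Sp5 RNAi tentacles changed direction, and the other named genes were not checked for this. Of the 6 fits without 1 library, the call was lost in 0 for gene 101237274, 1 for LOC100199858, 3 for LOC100213304, 3 for LOC100204588, and 4 each for 105843144, LOC105843641 and LOC101239718. Gene 105843144 had no value with the compared groups alone, where the filter removed it.

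In the 4 tested comparisons, same-numbered libraries did not vary together throughout (correlations of their deviations from group means of -0.22 to 0.16 over 12 pairs), so the replicate numbers were not taken as pairs there. Pairs across Zic4 RNAi parts, and across original and ectopic tentacles, were not examined. Libraries of 1 group differed beyond counting noise in each of 48 pairs (chi-square per degree of freedom 11 to 170). Values of a few counts, as in mock and shallow proximal libraries, limit any statement on single genes there.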
